A study of Mus musculus with 24 samples.

Results

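The transcription factor NRF2, encoded by Nfe2l2, its inhibitor Keap1 and 8 genes that NRF2 is known to switch on were followed in the dorsal skin of mouse embryos that lack desmoglein 1, an adhesion protein of the upper epidermis. The 10 genes were taken by name (Nfe2l2, Keap1, Nqo1, Hmox1, Gclc, Gclm, Txnrd1, Srxn1, Slc7a11 and Gsta4) out of 54087 genes in the read count table. The rule names genes and uses no measured value, but it was written with earlier results of these data known. All 10 passed the filter on low counts and are among the 17094 genes tested. Skin was taken at E18.5, late in gestation, from WT (Dsg1+/+), HET (Dsg1+/-) and KO (Dsg1-/-) embryos on a C57BL/6 background, with 5 sample numbers per genotype. The deleted stretch is the whole tandem cluster Dsg1a, Dsg1b and Dsg1c, removed by CRISPR/Cas9 in fertilized eggs, so HET animals carry 1 deleted copy and KO animals 2 in every cell. All of the animals descend from 1 edited line. The labels name no agent.

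NRF2 is held at a low level by KEAP1, an adapter that brings it to a CUL3 ubiquitin ligase for degradation. When electrophiles or oxidants modify cysteines of KEAP1, NRF2 escapes, enters the nucleus with a small MAF protein and binds antioxidant response elements in front of genes for glutathione synthesis, thioredoxin reduction, quinone detoxification and heme breakdown. In the epidermis NRF2 is also known to raise Slpi, a secreted protease inhibitor, and genes of the Sprr2 family, which encode precursors of the cornified envelope. Much of this control acts on NRF2 protein, which mRNA counts do not measure.

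The response element is short enough to be shown. A RefSeq promoter window, which spans 250 bases before to 50 bases after a transcription start, was at hand for 7 of the 10 genes (build GRCm38.p6). The element's core was searched on both strands as TGACNNNGC. It was present in a window of 4 of these 7 genes, printed here because they are the members in which the letters could be located. Each line gives the gene, then its bases 5′ to 3′ on the strand of the gene, with the match in capitals and 10 bases on either side.
Nfe2l2: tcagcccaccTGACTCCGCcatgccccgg
Gclm: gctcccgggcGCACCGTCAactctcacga
Txnrd1: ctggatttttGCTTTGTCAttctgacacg
Srxn1: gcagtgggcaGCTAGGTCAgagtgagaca

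The Nfe2l2 bases lie on the minus strand at chr2:75704885-75704913, and the match begins 240 bases before the start. Gclm (chr3:122245413-122245441, plus strand) has it from 134 bases before the start, and Txnrd1 (chr10:82859104-82859132, plus strand) from 92 bases before 1 of its 3 starts. In Srxn1 (chr2:152105542-152105570, plus strand) the match begins 28 bases after the start. Nfe2l2 holds the motif as written and the other genes hold its reverse complement. The first letters of the motif are shared with the AP-1 site TGACTCA, and none of the 4 printed stretches contains that site. The same letters occur in 12.4% of all 32851 promoter windows of this length, in 14% of genes and in 17% of the genes tested. A match is therefore a description of the letters and not of a bound site. Keap1, Nqo1 and Slc7a11 have a window without these letters.

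The count table held 24 libraries, which fall on 15 sample numbers, and 9 numbers had a library in each of 2 title series. Libraries of a number were summed to 1 column, with 15279289 to 33681853 counts. The labels do not say whether each number is a separate embryo, so p-values measure the spread between these columns. The summed Dsg1 genes checked the labels: WT columns averaged 806 CPM (counts scaled to a common library size) ± 112 (SD, n = 5), HET columns 422 ± 51.5 and KO columns 0.548 ± 0.343, with an exact two-sided permutation p of 0.00794 for KO and for HET against WT, the smallest this design allows. The labelled tissue was matched by its markers, since summed keratinocyte markers were between 57226 and 104051 CPM and summed dermal fibroblast markers between 14703 and 36658 CPM in every column. The 2 libraries of WT replicate 2 disagreed on the sex of the animal. One had 325 CPM of Y-linked transcripts and 0.264 CPM of Xist, and the other 0.155 and 567 CPM. Results were therefore also computed with these libraries apart and without this column. In whole skin, fewer cells of a type and less RNA per cell cannot be told apart.

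None of the 10 genes was called in any genotype comparison at an adjusted p of 0.1 or below (edgeR quasi-likelihood test, Benjamini-Hochberg adjustment over all genes tested). In KO vs WT, where 1.15% of all genes tested passed, 4 of the 10 had an unadjusted p below 0.05, beside 19.3% of all genes. Those 4 were Hmox1 and Txnrd1, with lower values in KO, and Gclc and Nfe2l2, with higher values. In KO vs HET 0.333% of genes passed, and 3 of the 10 (Txnrd1, Hmox1 and Nfe2l2) had an unadjusted p below 0.05, beside 16%. In HET vs WT the share of genes that passed was 0%, and none of the 10 had an unadjusted p below 0.05, beside 1.58%. Other tools differed for KO vs WT: 3 of the 10 genes (Hmox1, Txnrd1 and Gclc) passed with DESeq2 and 1 (Hmox1) with limma-voom, and none passed with either tool in HET vs WT or KO vs HET. At the study's full threshold, which also asks for a log2 fold change of at least 1, no member was called by these tools. With the libraries of WT replicate 2 kept apart, 2 of the 10 genes (Hmox1 and Txnrd1) passed an adjusted p of 0.1 in KO vs WT with edgeR.

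**Figure D1:**
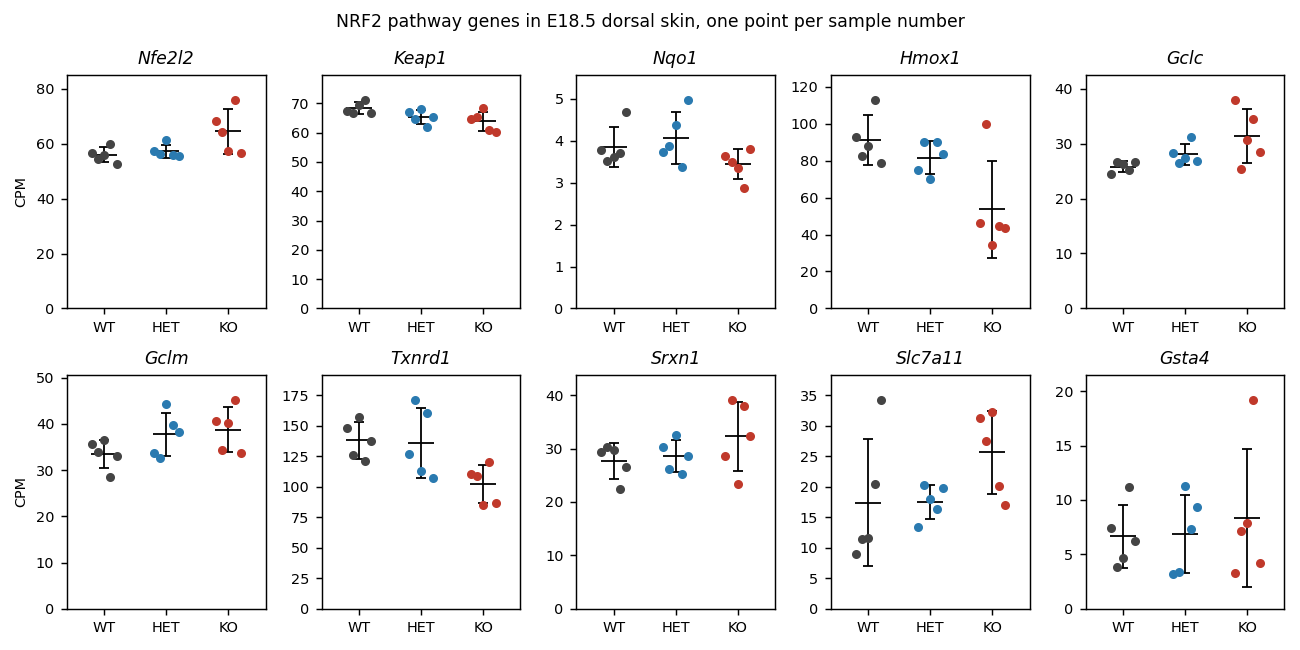
CPM of each of the 10 genes (vertical axes, each from 0) in WT, HET and KO columns, 1 point per sample number, with bars for the mean and SD of 5 columns. The KO points of Txnrd1, up to 120 CPM, lie below the WT points, which start at 121 CPM, and in Hmox1 a single KO point at 100 CPM stands apart from the others at 34.3 to 46.2 CPM.

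Levels are given below in CPM, always in the order of replicates 1 to 5. Per kilobase of annotated exon, the only scale on which genes are compared with each other, Hmox1 was the highest member in WT skin with 51.9 CPM per kilobase, followed by Txnrd1 with 19.5. Nfe2l2 (14.7) and Keap1 (14.6) came next, close to each other, then Srxn1 (9.81), Gclc (6.85), Gclm (5.33) and Gsta4 (5.27), and at the low end Nqo1 (2.48) and Slc7a11 (1.25). In KO skin Hmox1 remained first with 30.7, Nfe2l2 had 17 and Txnrd1 14.4 CPM per kilobase.

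The regulators themselves had small differences between genotypes, and neither passed the test. Nfe2l2 measured 56.5, 54.5, 56, 60.1 and 52.8 CPM in WT, 57.5, 56.3, 61.2, 56 and 55.4 in HET, and 68.3, 64.3, 57.5, 76.1 and 56.5 in KO. WT and HET columns stayed within 52.8 to 61.2 CPM, and 3 of the 5 KO columns lay above every WT column while the other two lay inside the WT range. The fitted difference KO vs WT was 0.21 on the log2 scale (SE 0.08, 95% interval 0.04 to 0.38, adjusted p = 0.189), a 1.15-fold higher level. It was 0.12 to 0.25 over the 30 alternative fits. Leaving out KO replicate 5 gave an adjusted p of 0.0826, the only 1 of the 30 that passed, and the largest was 0.692. KO replicate 4, the highest column, also had the highest summed adipocyte markers of all columns, at 4941 CPM. The other KO columns had 489 to 1416 CPM, WT columns 335 to 1012 and HET columns 550 to 3707. A fit with those markers as a covariate gave a KO vs WT difference of 0.12 for Nfe2l2 (adjusted p = 0.5). All 6 adipocyte markers had positive log2 differences in KO vs WT (median 1.49) and in HET vs WT (median 1.14), and none passed. This covariate can therefore remove part of a genotype difference, here and in the genes below.

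Keap1, which encodes the sensor and inhibitor, measured 67.5, 66.7, 69.5, 71.3 and 66.7 CPM in WT, 67.2, 64.6, 68, 62 and 65.2 in HET, and 64.8, 65.3, 68.3, 61 and 60.4 in KO. It had the narrowest spread of the 10 genes (an SD of 0.06 on the log2 scale within genotypes), and 4 of the 5 KO columns were below every WT column. The size was small, with a log2 difference KO vs WT of -0.10 (95% interval -0.22 to 0.03, adjusted p = 0.376). The interval leaves room for a fall of up to 0.22 on the log2 scale and a rise of at most 0.03.

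Of the members that serve glutathione supply and use, none passed the test. Gclc encodes the catalytic subunit of glutamate-cysteine ligase, the rate-limiting enzyme of glutathione synthesis. It measured 24.4, 26.6, 26.2, 25.2 and 26.6 CPM in WT, 28.3, 26.4, 27.4, 31.2 and 26.9 in HET, and 38, 25.3, 30.6, 34.5 and 28.5 in KO. WT columns were tightly grouped, 4 of 5 KO columns were above all of them, and KO replicate 2 was inside the WT range. The log2 difference KO vs WT was 0.28 (SE 0.10, 95% interval 0.08 to 0.49, adjusted p = 0.148). It came to 0.21 in the first title series alone and 0.30 in the second. The adjusted p was 0.1 or below in 3 of the 30 alternative fits. These were DESeq2 (0.0756) and the fits without KO replicate 2 (0.0978) and without KO replicate 5 (0.0863). The largest value was 0.683, in the first title series alone.

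Gclm encodes the modifier subunit of the same ligase. Its columns held 35.6, 33.9, 36.5, 28.6 and 33.1 CPM in WT, 33.8, 32.7, 44.3, 39.7 and 38.2 in HET, and 40.6, 34.3, 40.1, 45.2 and 33.7 in KO. The groups overlapped, with 3 HET and 3 KO columns above all WT columns, and the KO mean stood at 116% and the HET mean at 113% of WT. The log2 difference was 0.21 in KO vs WT (95% interval -0.01 to 0.43, adjusted p = 0.277) and 0.04 in KO vs HET (-0.18 to 0.26). With adipocyte markers as a covariate the KO vs WT value was 0.08.

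Slc7a11 encodes the transport chain of the cystine-glutamate exchanger, which brings in cystine for glutathione. It was the most variable between WT columns, with 8.98, 11.5, 11.6, 20.5 and 34.2 CPM, beside 13.4, 20.3, 18, 16.3 and 19.7 in HET and 31.3, 27.4, 32.2, 20.1 and 17 in KO. The highest single column of all 15 was WT replicate 5, so that no KO column lay above the WT range, although all 5 lay above the WT median. The KO mean was 147% of the WT mean, the largest percentage among the 10 genes, and the log2 difference was 0.57 (SE 0.31, 95% interval -0.10 to 1.23, adjusted p = 0.323). The first title series alone, which lacks WT replicates 1 and 5 and KO replicates 4 and 5, gave 1.03 and the second 0.56. Without WT replicate 5 the difference was 0.96 (adjusted p = 0.136), and with adipocyte markers as a covariate 0.91.

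Gsta4, a glutathione S-transferase that removes the lipid peroxidation product 4-hydroxynonenal, measured 7.42, 3.85, 4.65, 11.2 and 6.19 CPM in WT, 3.16, 3.35, 11.3, 7.29 and 9.33 in HET, and 3.31, 7.12, 7.87, 19.2 and 4.24 in KO. It varied within each genotype more than between them, with a ratio of highest to lowest column of 2.92 in WT, 3.57 in HET and 5.81 in KO. The KO vs WT difference of 0.32 on the log2 scale had a 95% interval from -0.72 to 1.36. It turned to -0.24 without KO replicate 4 and to -0.44 with adipocyte markers as a covariate. The columns with the most Gsta4, KO replicate 4, HET replicate 3 and WT replicate 4, had 4941, 3707 and 335 CPM of summed adipocyte markers.

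The members of the thioredoxin system had differences of opposite sign. Txnrd1, the cytosolic reductase that keeps thioredoxin reduced, measured 148, 126, 157, 121 and 137 CPM in WT, 127, 171, 113, 160 and 107 in HET, and 110, 109, 84.6, 120 and 86.4 in KO. It was the only member whose KO and WT columns did not overlap in CPM, the highest KO column lying just under the lowest WT column. Among all genes tested 3.37% had KO and WT columns that did not overlap. The KO mean was 73.9% of the WT mean, with a log2 difference of -0.44 (SE 0.14, 95% interval -0.73 to -0.15, adjusted p = 0.129). The first and second title series alone gave -0.44 and -0.43. The adjusted p was 0.0753 with DESeq2, 0.0719 without WT replicate 4 and 0.0898 with the libraries of WT replicate 2 kept apart. With the keratinocyte covariate fit below, 4 of the 30 alternative fits passed in KO vs WT, and the largest adjusted p was 0.551. With keratinocyte markers as a covariate, in a fit added after the values were seen, the difference was -0.60 (adjusted p = 0.0612) against WT and -0.56 (adjusted p = 0.0965) against HET.

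Srxn1 encodes sulfiredoxin, which repairs overoxidized peroxiredoxins. It had 29.3, 30.3, 29.8, 22.4 and 26.5 CPM in WT, 30.3, 26.1, 32.5, 25.2 and 28.6 in HET, and 28.6, 39.1, 23.4, 37.9 and 32.3 in KO. The KO columns both exceeded and stayed within the WT range, with 3 of 5 above it, and the difference was 0.22 on the log2 scale (95% interval -0.05 to 0.50, adjusted p = 0.351). It was 0.14 without KO replicate 2 and 0.04 with adipocyte markers as a covariate.

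Nqo1, the quinone reductase that is often used as a readout of NRF2 activity, was low in this skin. Its counts per column were between 52 and 121, or 3.78, 3.51, 3.6, 3.71 and 4.68 CPM in WT, 3.74, 3.87, 4.38, 3.38 and 4.98 in HET, and 3.64, 3.5, 3.36, 2.88 and 3.81 in KO. The groups overlapped, with 3 of 5 KO columns below every WT column and all 5 below the HET median. The KO vs WT log2 difference was -0.16 (95% interval -0.45 to 0.13, adjusted p = 0.518). It was -0.08 without WT replicate 5, -0.10 without KO replicate 4 and -0.02 in the first title series alone. At this depth the libraries of the same number differed by a median of 0.31 on the log2 scale.

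Hmox1 encodes heme oxygenase 1, which breaks heme into biliverdin, carbon monoxide and iron. Its columns held 92.9, 82.3, 87.9, 113 and 78.6 CPM in WT, 74.8, 89.9, 70, 89.8 and 83.8 in HET, and 46.2, 100, 34.3, 44.5 and 43.4 in KO. In KO replicates 1, 3, 4 and 5 the level was below every WT and every HET column, while KO replicate 2 lay inside the WT range. That column was high in both of its libraries, at 99.5 and 101 CPM. The KO vs WT log2 difference was -0.76 (SE 0.23, 95% interval -1.24 to -0.28, adjusted p = 0.12), a KO mean of 59.1% of the WT mean. Without KO replicate 2 it was -1.11 with an adjusted p of 0.000217, and against HET it moved from -0.60 (adjusted p = 0.227) to -0.96 (adjusted p = 0.00118). KO replicate 2 was the column that stood apart, so leaving it out narrows the KO spread by construction. In the 14 other fits without 1 column the adjusted p was above 0.1 in both comparisons. Of the 30 alternative fits, 6 passed in KO vs WT. The first title series alone gave -0.67 and the second -0.75 for KO vs WT, both with an adjusted p above 0.1 (0.62 and 0.112). With the libraries of WT replicate 2 kept apart the KO vs WT difference was -0.73 (adjusted p = 0.0744).

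KO replicate 2 differed from the other KO columns in differentiation markers as well. Lor, which encodes the cornified envelope protein loricrin, was at 10403 CPM there and at 4108 to 5032 CPM in the other KO columns, and summed keratinocyte markers were at 104051 against 70790 to 77853 CPM. With the keratinocyte markers as a covariate, a fit added after the values were seen, the Hmox1 difference KO vs WT was -1.21 with an adjusted p of 0.000948. KO replicate 2 was the highest of all columns in these summed markers, so this fit is not independent of the fit without that column. Summed macrophage markers, which belong to cells that also express Hmox1, spanned 244 to 454 CPM in KO and 261 to 437 CPM in WT. KO replicate 2 had the highest sum of all columns, and KO replicate 3, the column with the least Hmox1, had the lowest. The Hmox1 difference with the macrophage markers as a covariate was -0.77 (adjusted p = 0.092). KO replicate 2 also had the lowest summed skeletal muscle markers of all columns, at 7343 CPM. Summed erythroid markers spanned 3107 to 9047 CPM in KO and 1652 to 5155 CPM in WT, and their part in the Hmox1 values was not tested. None of the macrophage or erythroid markers in the table was at 0 in all columns.

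**Figure D2:**
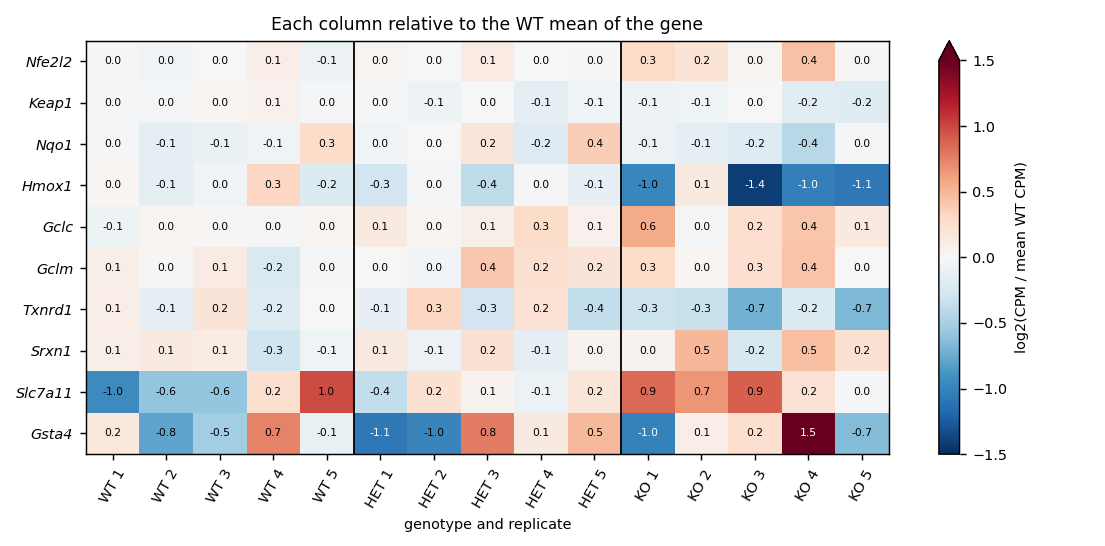
Each of the 15 columns (horizontal axis) for the 10 genes (vertical axis) as log2 of CPM over the mean WT CPM, with the value written in each cell and the colour scale ending at 1.5. Hmox1 is blue in every KO column but replicate 2, Txnrd1 is blue in all 5 KO columns, and the Gsta4 row changes sign within each genotype.

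No column lay above the WT mean, or below it, in all 8 target genes. KO replicate 4 had the highest level of all 15 columns for Nfe2l2, Gclm and Gsta4 and the lowest for Nqo1. KO replicate 3 was lowest for Hmox1 and Txnrd1, and KO replicate 1 was highest for Gclc. WT replicate 4 was at once the highest for Keap1 and Hmox1 and the lowest for Gclm and Srxn1. Over the members, 6 of 10 had a positive and 4 a negative log2 difference in KO vs WT, with a median of 0.21, beside a median of -0.01 and quartiles of -0.19 and 0.16 over all genes tested. Without KO replicate 4, the column rich in adipocyte markers, 5 were positive and 5 negative and the median was 0.03. It was -0.03 with adipocyte markers as a covariate and 0.22 with RLE factors.

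HET skin lay close to WT for each of the 10 genes. The log2 differences HET vs WT ran from -0.16 for Hmox1 to 0.17 for Gclm, with a median of 0.04, and the smallest adjusted p was 0.9998. The HET columns overlapped the WT columns in all 10 genes, where 0.374% of all genes tested had none. The precision differed by gene: the 95% interval was -0.19 to 0.06 for Keap1 and -0.14 to 0.20 for Nfe2l2, but -0.63 to 0.32 for Hmox1, -0.64 to 0.68 for Slc7a11, and it reached up to 1.09 for Gsta4. The intervals of Slc7a11 and Gsta4 cannot tell a 1.5-fold change in either direction from none.

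KO vs HET shares its KO columns with KO vs WT. Txnrd1 differed by -0.41 (SE 0.14, adjusted p = 0.187), Hmox1 by -0.60 (SE 0.23) and Nfe2l2 by 0.17 (SE 0.08, adjusted p = 0.307) on the log2 scale. All 5 KO columns of Txnrd1 were below the HET median but only 2 below every HET column. None of the 10 genes had KO and HET columns that did not overlap, against 2.25% of all genes tested.

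**Figure D3:**
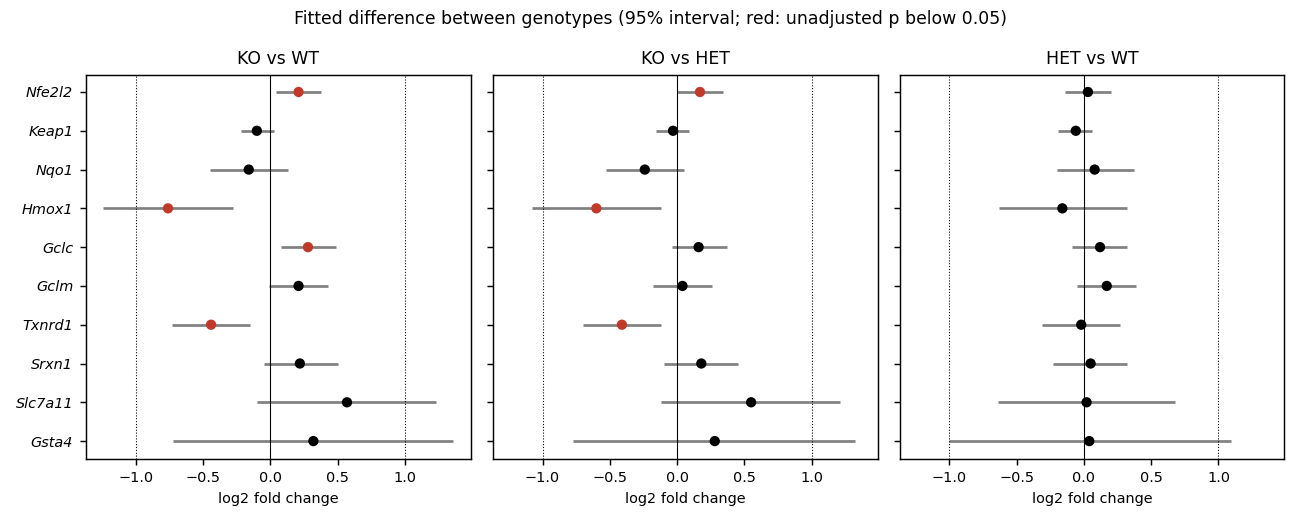
Fitted log2 fold change (points) with 95% interval (lines) for the 10 genes in KO vs WT, KO vs HET and HET vs WT, with dotted lines at the study's fold limit and red points for an unadjusted p below 0.05. The intervals of Hmox1 and Txnrd1 lie below 0 in both comparisons with KO, and all HET vs WT intervals include 0.

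The differences between columns were larger than those between libraries of a number for most members. In the 8 numbers with agreeing libraries the pair differed by a median of 0.05 on the log2 scale in Hmox1, 0.03 in Txnrd1 and 0.06 in Slc7a11, while the SD within genotypes was 0.37, 0.23 and 0.53. For Keap1 and Nqo1 the libraries of a pair differed as much as the columns did (medians of 0.07 and 0.31 beside SDs of 0.06 and 0.18). The pair of WT replicate 2 differed by 0.31 in Srxn1 and 0.37 in Gsta4 and by at most 0.25 in either direction in the other members.

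**Figure D4:**
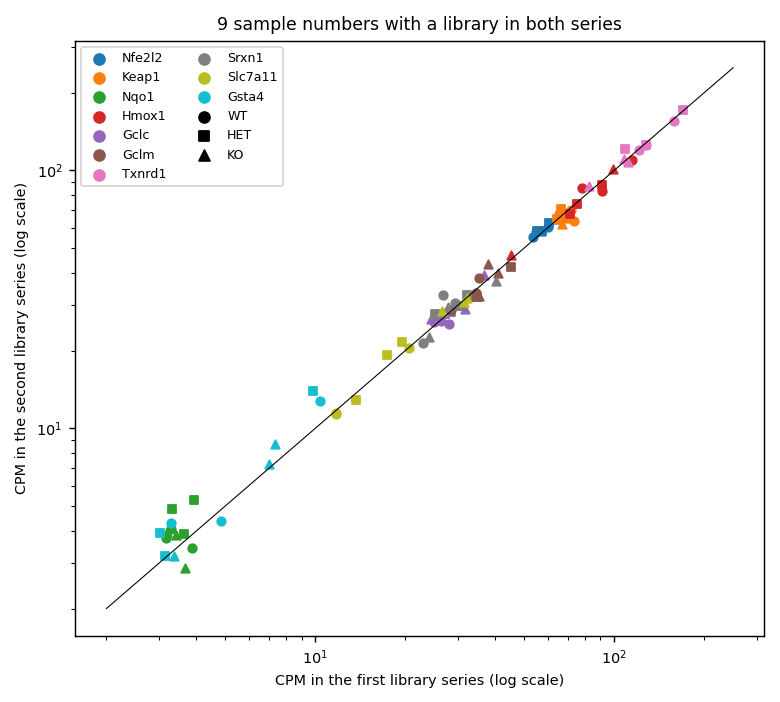
CPM of the 10 genes in the first (horizontal) and second (vertical) library series for the 9 numbers with a library in both, on log axes with a line of equality. Colours stand for genes and shapes for genotypes; the points of Nqo1 and Gsta4, the lowest genes, scatter most around the line.

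The wider pathway was described by 8 further lists, 79 genes in all, of which 77 were tested. None of the 77 had an adjusted p of 0.1 or below in KO vs WT, 13 had an unadjusted p below 0.05 (11 higher and 2 lower, or 16.9%, where 19.3% of all genes did), and the median log2 difference was 0.06. The 6 enzymes of NADPH supply, which provides the reducing power for glutathione and thioredoxin, all had positive log2 differences, with a median of 0.43, but none passed. Without KO replicate 4 the difference was positive in 4 of the 6 and the median was 0.15, and with adipocyte markers as a covariate it was -0.01. The nearest to the threshold was G6pdx, the first enzyme of the pentose phosphate pathway, with 93.6, 110, 86.7, 118 and 77.4 CPM in KO and 63.8, 66.5, 79.3, 79.2 and 70.6 in WT. Its log2 difference was 0.44 (SE 0.11, adjusted p = 0.101), and 4 of 5 KO columns were above all WT columns. This gene is a borderline case, since 12 of its 30 alternative fits gave an adjusted p of 0.1 or below. Me1, malic enzyme 1, differed by 0.44 (adjusted p = 0.178), and by 0.25 without KO replicate 4.

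Among 11 partners and regulators of NRF2, 4 had an unadjusted p below 0.05, all with higher values in KO (36.4%, where 19.3% of all genes did). The median of the list was 0.02. The 4 were Gsk3b, Bach1, the small MAF gene Mafk (0.20, adjusted p = 0.202) and Nfe2l1 (0.17, adjusted p = 0.245). Gsk3b, a kinase that marks NRF2 for degradation independently of KEAP1, had 109, 101, 94.5, 115 and 75.5 CPM in KO and 66.9, 75.1, 76.5, 95.9 and 69.3 in WT, a log2 difference of 0.37 (SE 0.11, adjusted p = 0.123). It passed in 4 of 30 alternatives. Bach1, a repressor that competes with NRF2 for response elements and is best known for repressing Hmox1, had 78, 78.6, 64.5, 77.7 and 66.8 CPM in KO and 49, 54.7, 52.8, 77.6 and 61.5 in WT. All 5 KO columns were above the WT median, with a log2 difference of 0.31 (SE 0.12, adjusted p = 0.178) that passed in 1 of 30 alternatives, the fit without WT replicate 4 (adjusted p = 0.0497). Cul3, the ligase scaffold, differed by 0.09 and Sqstm1, which can sequester KEAP1, by -0.06.

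The remaining lists held smaller or less even differences. Among 12 genes of quinone and carbonyl detoxification and export, the efflux pumps Abcc4 (0.48, adjusted p = 0.125) and Abcc1 (0.30, adjusted p = 0.176) had the smallest p, and they passed in 5 and 2 of 30 alternatives. Of 18 glutathione S-transferases tested, the omega-class Gsto1 differed by 0.25 (adjusted p = 0.202) and the mu-class Gstm5 by -0.19 (adjusted p = 0.207), and the median was 0.02. In the thioredoxin and peroxiredoxin list Txnrd3 differed by 0.32 (adjusted p = 0.183) and the mitochondrial Txnrd2 by 0.50 (adjusted p = 0.4). Glrx, which encodes glutaredoxin (-0.35, adjusted p = 0.293), and Gss, glutathione synthetase (-0.19, adjusted p = 0.407), led the list of glutathione synthesis and use, whose median was -0.12 over 8 genes. In the list of heme and iron, where no gene had an unadjusted p below 0.05, Fth1, the ferritin heavy chain, differed by 0.12 and Slc40a1, the iron exporter ferroportin, by 0.14. Of the enzymes that remove superoxide and peroxide, Cat, catalase, differed by 0.74 (adjusted p = 0.211) and Gpx3, a secreted glutathione peroxidase, by 1.26 (SE 0.63, adjusted p = 0.292). Several of these values rest on KO replicate 4, without which Gpx3 was -0.04, Fth1 -0.11, Txnrd2 0.02, Txnrd3 0.21, Gss -0.30 and Cat 0.37, and the median of the 5 superoxide and peroxide enzymes went from 0.74 to -0.04. Glrx was -0.23 without KO replicate 1 or 3, and Slc40a1 was 0.07 without WT replicate 5 and -0.0006 without KO replicate 2.

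**Figure D5:**
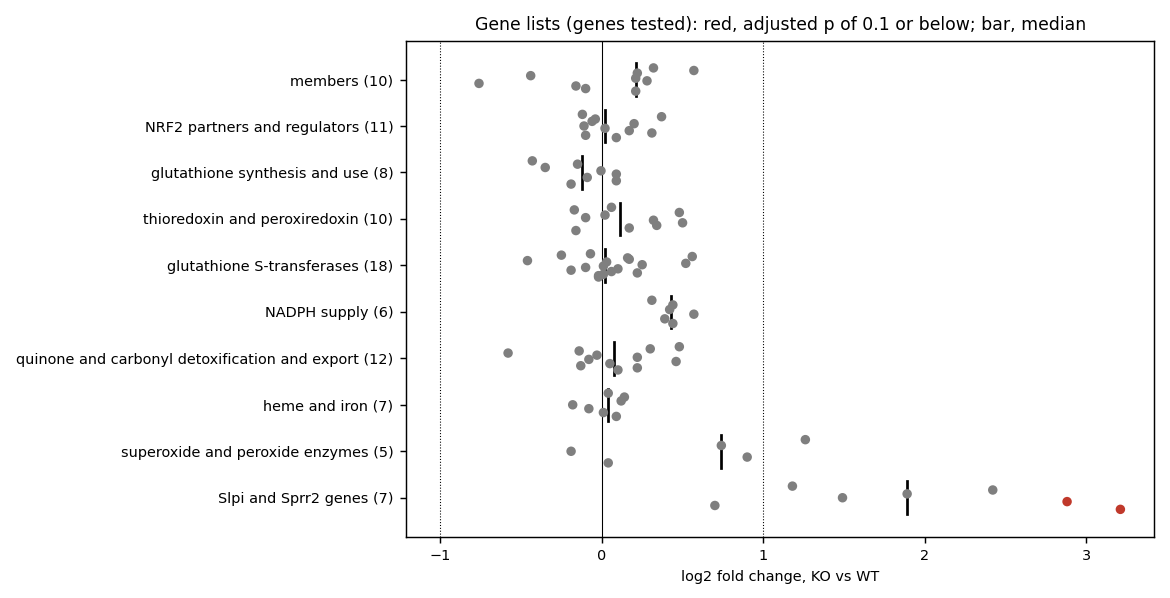
Log2 fold change KO vs WT (horizontal axis) of the 10 members and of the other lists (vertical axis, genes tested in brackets), 1 point per gene, with a bar at each median and red for an adjusted p of 0.1 or below. The red points are Slpi at 3.21 and Sprr2b at 2.88; the medians of the NRF2 lists lie between -0.12 and 0.74.

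Slpi and the Sprr2 genes were set beside the members with their rise in these data already known, and because NRF2 can raise them in skin, so their values are a description and no independent evidence of a direction. The 7 genes tested had positive log2 differences in KO vs WT, and 2 of them passed. Slpi was at the edge of detection in WT, with 0 to 9 counts per column, and reached 1.71, 1.55, 0.553, 2.67 and 0.571 CPM (12 to 57 counts) in KO. All 5 KO columns were above all WT and HET columns, and the gene rose by a log2 difference of 3.21 (SE 0.55, adjusted p = 0.0231). It passed in 25 of the 27 alternative fits that tested it. The fit with adipocyte markers as a covariate was not among those 25. In that fit all 7 genes kept positive differences, with a median of 1.62 beside 1.89 in the main fit. Some markers of other cells and of differentiation differed between the same groups. Summed neutrophil markers (7 genes in the table, none at 0 in all columns) were at 15.4, 6.75, 23.6, 20 and 7.28 CPM in KO and at 6.6 to 9.71 CPM in WT. Of the 6 tested only Cxcr2, a chemokine receptor of neutrophils, passed, 2.31 higher on the log2 scale (adjusted p = 0.0891), and Camp differed by -0.03. Ivl, which encodes the cornified envelope protein involucrin, was 0.76 higher (adjusted p = 0.0231). It was the only 1 of the 7 keratinocyte markers that passed. The others differed by 0.32 (Krt1), 0.23 (Krt10), 0.16 (Trp63), 0.08 (Lor), 0.03 (Krt5) and -0.09 (Krt14). The part of these markers in the Slpi and Sprr2 values was not tested, other than by the keratinocyte marker covariate. Sprr2b rose by 2.88 (SE 0.62, adjusted p = 0.0793), from 0.421 CPM ± 0.358 in WT to 3.19 ± 2.2 in KO, but it passed in only 13 of 29 alternatives, and it missed in 10 of the 15 fits without 1 column (adjusted p between 0.000442 and 0.551 over all alternatives).

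The other Sprr2 genes that could be tested did not pass. Sprr2g differed by 2.42 (adjusted p = 0.102), Sprr2e by 1.89 (adjusted p = 0.111), Sprr2d by 1.49 (adjusted p = 0.162), Sprr2h by 1.18 (adjusted p = 0.2) and Sprr2a3 by 0.70 (adjusted p = 0.202). KO replicates 2 and 4 had the highest columns of Sprr2d, at 102 and 50.8 CPM, and KO replicates 1 and 3 were inside the WT range at 21.6 and 13.5 CPM. The Sprr2d difference was 0.97 without KO replicate 2, and with keratinocyte markers as a covariate it was 0.62, with 1.04 for Sprr2e, 0.44 for Sprr2h and 0.32 for Sprr2a3. Those markers include Ivl, which was itself higher in KO, so this covariate can remove part of a genotype difference. The Sprr2 genes are near copies of each other, so their individual counts are uncertain, and 5 of them (Sprr2a1, Sprr2a2, Sprr2f, Sprr2i and Sprr2k) were too low to test.

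In HET vs WT the 7 genes of this group had a median of -0.31 and none had an unadjusted p below 0.05. The KO columns that were highest for these genes were not highest for all antioxidant members. KO replicate 2, with the most Sprr2d, Sprr2e and Sprr2b, had Gclc at 25.3 and Gclm at 34.3 CPM, both inside the WT range, while its Srxn1 was the highest of all columns. KO replicate 4, with the most Slpi and Sprr2g, had the highest Nfe2l2, Gclm and Gsta4 and the lowest Nqo1 (56 counts). Whether NRF2 had a part in the Slpi and Sprr2 values was not tested.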

How the data were processed

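Poly(A) RNA from flash-frozen skin was sequenced from a directional kit. The deposited values are whole-number counts per gene, which the authors made with STAR and HTSeq per the submitters' processing notes. The same notes name the human build hg19, although the symbols are mouse. Versions, annotation and strand setting are not given in the sources used here, so reads from overlapping or antisense genes cannot be told apart (Keap1 and Gclm have such neighbours in GENCODE). Libraries of the same sample number were summed to 15 columns, 5 per genotype.

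Genes that passed filterByExpr were tested with edgeR 4.0.16 (TMM factors, robust quasi-likelihood F-test) in R 4.3.3, all 3 genotypes in 1 fit, with Benjamini-Hochberg adjustment over all 17094 genes. Calls were made at an adjusted p of 0.1, and also with the study's log2 fold limit of 1. DESeq2 1.42.0, limma 3.58.1 (voom) and 28 further settings were alternatives, 3 of them added after the values were seen. Those 3 used as covariate the mean log2(CPM + 1) of a marker list, not the summed CPM. The keratinocyte list was Krt5, Krt14, Krt1, Krt10, Lor, Trp63 and Ivl. Tested on simulated data for KO vs WT over 16912 genes, edgeR recovered 93 of 100 2-fold and 100 of 100 4-fold changes with 21 false calls. DESeq2 recovered 95 and 100 with 48 false calls, and limma-voom 93 and 100 with 21. In simulated HET vs WT, where no gene was changed, DESeq2 made 3 calls and the other tools 0. The changed genes had a mean of at least 50 counts, and each gene was given the spread typical of its level. These shares therefore do not apply to smaller changes or to more variable genes such as Gsta4 and Slc7a11 (SDs of 0.82 and 0.53 on the log2 scale within genotypes). CPM used TMM factors. Levels per kilobase used exon lengths of GENCODE vM21. The permutation test of summed Dsg1 genes used log2(CPM + 1).

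The members and lists were chosen with earlier results of these data known. All 10 members are named, from each list up to 4 genes with an adjusted p of 0.1 or below by size of the log2 difference or else up to 2 with the smallest p in KO vs WT, and Slpi and each tested Sprr2 gene. Mafk, Nfe2l1, Cul3, Sqstm1, Lor, Ivl, Cxcr2 and the other single marker genes were named after their values were seen.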

Additional observations from a re-analysis of the deposited data

Results flagged for a closer look

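The spread of the 10 genes within each genotype was screened for a column whose gap to its nearest neighbour was more than 0.71 of the range of the group's 5 columns. This marked 3 of 30 groups, where chance alone marks about 1 in 20. Hmox1 in KO was marked for replicate 2, with a gap of 0.82 of the range (100 CPM, the others 34.3 to 46.2 CPM). Nqo1 in WT was marked for replicate 5, with a gap of 0.764 (4.68 CPM, the others 3.51 to 3.78 CPM). Gsta4 in KO was marked for replicate 4, with a gap of 0.713 (19.2 CPM, the others 3.31 to 7.87 CPM).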

How the results depend on the processing

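Of the 10 members, 9 kept their direction in KO vs WT in all 30 alternatives. The count at an adjusted p of 0.1 or below in KO vs WT, 0 as reported, was 3 with DESeq2, 1 with limma-voom, 2 with the libraries of WT replicate 2 apart, 1 with a macrophage and 2 with a keratinocyte marker covariate, and 0 to 2 without 1 column. With the fold limit it was 1 with the keratinocyte covariate and 0 to 1 without 1 column. In KO vs HET it was 2 with the keratinocyte covariate (1 with the fold limit) and 0 to 1 without 1 column. For the 77 other pathway genes the count in KO vs WT was 4 with DESeq2, 3 with the libraries of WT replicate 2 apart, 1 with RLE factors, limma-voom, no filter, the second series alone, WT replicate 2 from the second series alone or the macrophage covariate, and 0 to 7 without 1 column. In KO vs HET it was 3 with DESeq2 and 0 to 5 without 1 column. The cause was not tested. No HET vs WT count moved from 0, and an adjusted p of 0.05 left each count at 0.

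Reversals, none with an adjusted p of 0.1 or below, were as follows on the log2 scale. With the first series alone, KO vs WT was -0.08 for Gsta4, -0.09 for Fth1 and -0.33 for Gpx3, HET vs WT 0.01 for Txnrd1 and -0.21 for Gsta4, and KO vs HET 0.005 for Keap1 and -0.0009 for Gclm. With the adipocyte covariate, KO vs WT was -0.44 for Gsta4, -0.19 for Txnrd2, -0.22 for Fth1 and -0.27 for Gpx3, and HET vs WT -0.03 for Nfe2l2, -0.10 for Srxn1 and -0.52 for Gsta4. HET vs WT was 0.01 for Hmox1 and -0.09 for Slc7a11 with the macrophage covariate, and for Gsta4 -0.05 in the limma-voom fit and -0.03 when Y-linked genes were a covariate. KO vs WT was -0.03 for Slc40a1 with the keratinocyte covariate. Without 1 column, KO vs WT ranged from -0.24 to 0.59 for Gsta4, -0.0006 to 0.20 for Slc40a1, -0.11 to 0.18 for Fth1 and -0.04 to 1.49 for Gpx3. HET vs WT ranged from -0.0003 to 0.16 for Nqo1, -0.12 to 0.05 for Txnrd1, -0.02 to 0.08 for Srxn1, -0.14 to 0.41 for Slc7a11 and -0.22 to 0.32 for Gsta4. KO vs HET ranged from -0.02 to 0.10 for Gclm and -0.28 to 0.54 for Gsta4.

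No paired analysis was possible because the genotypes share no sample number. Counts were low for Nqo1 (52 to 121 per column), Slpi (0 to 57) and several Sprr2 genes.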
